A study of Mus musculus with 8 samples.

Results

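The genes described here are 57 developmental transcription factors that are active mainly in the brain, neural tube, sense organs, limbs and body wall of the embryo, and that textbooks count among the targets of Polycomb repression. They were taken from a list by name: Dlx, Lhx, Pax, sine oculis-related (Six2, Six3, Six6), engrailed, Otx, Emx, Msx and other homeobox genes, together with neural Sox and basic helix-loop-helix genes, Gata4, Foxd3 and Foxl2, leaving out the Hox, T-box, Irx, AP-2, Alx and Pou3f families. A gene counted as measured where a probe set of the array carried its symbol and no other, and where a gene had several, the one whose mean over the 8 arrays was highest stood for it. This gave 54 of the 57 genes, among 22180 genes in all. Dlx1, Msx1 and Bhlhe22 had no such probe set. The genes were listed by name, with earlier results of these data known, and expression was used in choosing among a gene's probe sets. Polycomb marks were not measured in this study, so that property comes from general knowledge and not from these arrays.

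RNA of whole lungs was measured at embryonic day 14.5, on 1 array per embryo, in mice of a mixed C57BL/6 x 129S6 background. The 4 mutant embryos were Shh-cre:Ezh2-flox/flox, and the 4 control embryos were Shh-cre, so that the Cre driver was present in every embryo. Shh-cre expresses the recombinase where the Shh gene is active, which in the lung is the epithelium, and also in other tissues that express Shh. Cells in which the driver is not active keep Ezh2 and are part of each sample. The embryos came from 4 litters of 2, controls 1 and 2 from litter 1, controls 3 and 4 from litter 2, mutants 1 and 2 from litter 3 and mutants 3 and 4 from litter 4. No litter held both genotypes, so genotypes could not be compared within a litter. The comparison asks which of these regulators differ in a lung whose epithelium was meant to lose Ezh2.

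Ezh2 encodes the methyltransferase of Polycomb repressive complex 2, which places a repressive methyl mark on histone H3 at the promoters of developmental regulators. In a given tissue most regulators of other lineages carry that mark and stay silent, while the few that the tissue uses are free of it. Members of these families bind DNA through a homeodomain, a paired domain, a basic helix-loop-helix, an HMG box, zinc fingers or a forkhead, and each patterns a limited part of the embryo.

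The deposited values are log2 expression from RMA, which normalizes arrays to one another and draws changes of dim genes towards 0. Array medians were 7.05 to 7.12, and arrays correlated over all probe sets at 0.986 to 0.995. Ezh2 had a mean log2 value of 11.87 ± 0.05 (SD, n = 4) in controls against 11.78 ± 0.02 for the 4 mutants, and did not pass, with limma adjusted p = 0.652. Its groups did not overlap, with all mutants below all controls, as held for 3.6% of all genes. Xist was low in controls 1 and 2 and mutant 3 (6.37 to 6.74) and high in the other 5 embryos (12.61 to 13.00). The lung epithelial genes Nkx2-1 and Sftpc and the lung mesenchymal genes Foxf1 and Tbx4 had means of 10.79, 12.85, 11.88 and 11.24 in controls and 10.74, 12.93, 11.86 and 11.29 in mutants. For the epithelial gene Epcam all mutants lay below all controls, by −0.26 on the log2 scale, a difference short of the threshold (limma adjusted p = 0.139). In whole lung, fewer cells of a type and less RNA per cell cannot be told apart.

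Of the 54 measured regulators, 2 rose in mutant lungs, Pax2 and Meox1, 0 fell and 52 did not pass the test. Pax2 rose 1.63-fold and Meox1 1.31-fold. Over all 22180 genes, 0.604% were called higher and 0.248% lower. These calls come from limma with litter as a random block, at an adjusted p of 0.05 after Benjamini-Hochberg adjustment over all genes. At an unadjusted p under 0.05, 7 of the 54 were higher and 0 lower, against 5.61% and 4.26% of all genes. All mutants lay above all controls in 5 regulators, Pax2, Meox1, En2, Dlx3 and Pax3, and below all controls in 0. Over all genes this held for 4.48% and 3.6%. The two-sided exact permutation p of each of these 5 was 0.0286, which is as small as 8 embryos in 2 equal groups allow and which treats littermates as independent.

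**Figure D1:**
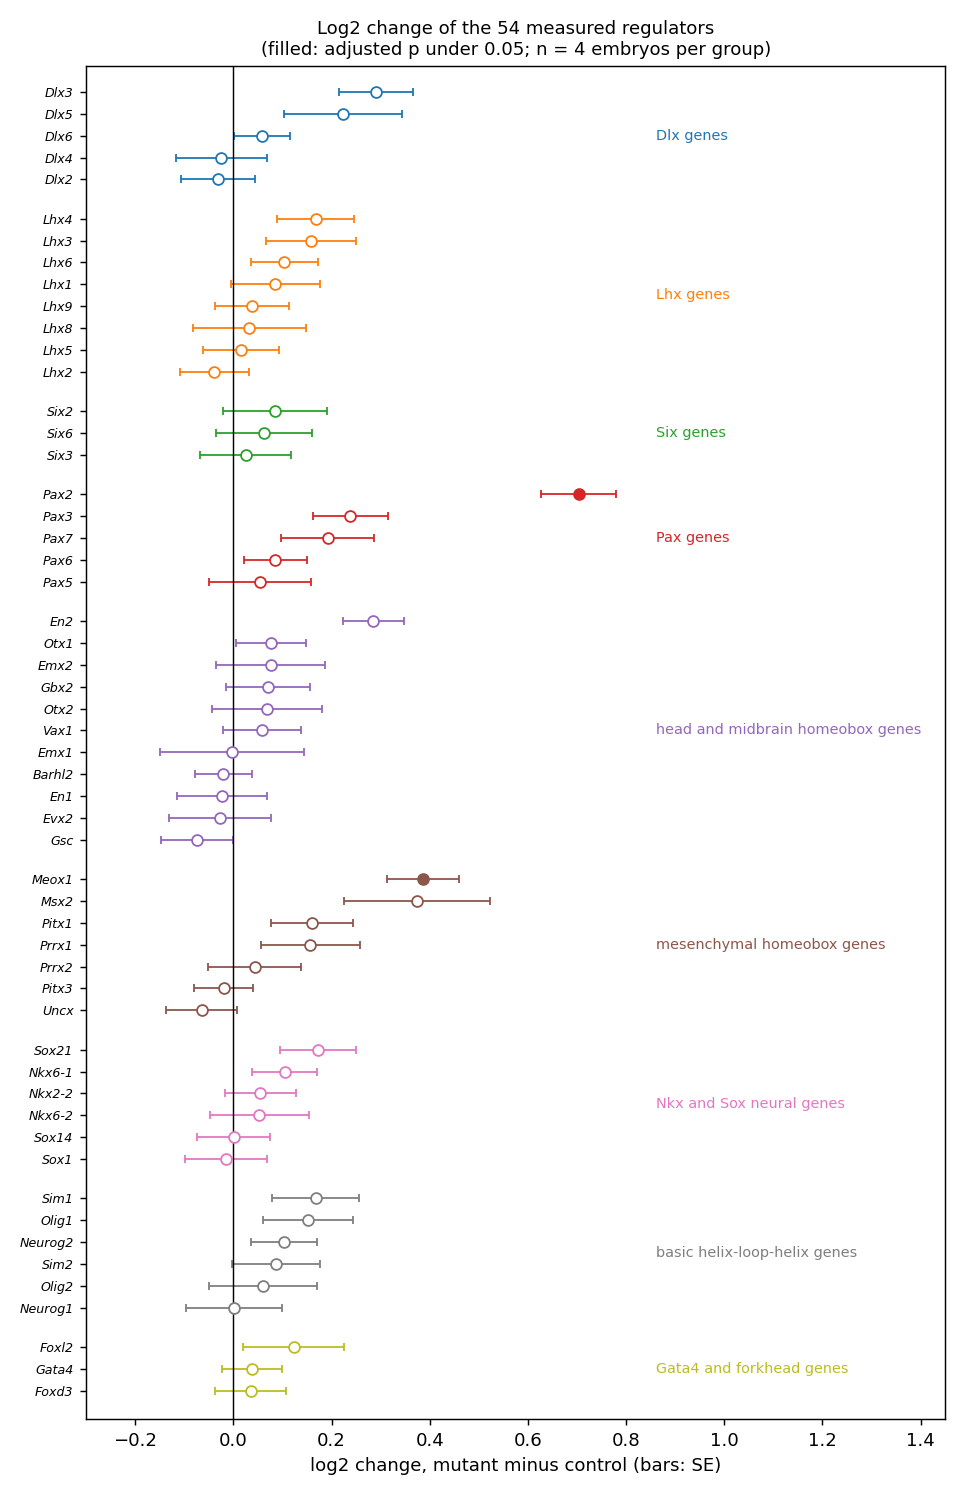
Log2 change of each of the 54 measured regulators, mutant minus control, by family, with the SE as bars (n = 4 embryos per group). Filled points passed an adjusted p of 0.05. Pax2 (0.70) and Meox1 (0.39) are the filled points, and 35 of the 54 genes lie within 0.1 of 0.

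For 51 of the 52 regulators that were not called, the 95% interval of the change stayed within 1.5-fold in either direction, as it did for 97.6% of all genes. The exception was Msx2. Changes were small throughout, under 0.1 on the log2 scale in 35 genes, from 0.1 to under 0.3 in 16 and at least 0.3 in 3, which were Pax2, Meox1 and Msx2. Because most of these genes were dim and RMA shrinks dim changes, an interval describes the array value and not the number of transcripts.

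Pax2, the paired-box factor of the kidney, optic stalk and inner ear, is the member whose change stood out most from the embryos' spread. RefSeq lists 3 start sites for it on chromosome 19 (build GRCm38.p6, plus strand), and each sequence window spans 250 bases before to 50 bases after a start. They are shown because Pax2 was the clearest increase, next to the window of Pax7, a paired-box gene of the same family that was not called (chromosome 4, minus strand, chr4:139832919-139833218). CpG dinucleotides are in capitals, since Polycomb targets in mammals tend to have CpG-rich starts. The Pax2 windows are chr19:44746351-44746650, chr19:44755502-44755801 and chr19:44756656-44756955.
Pax2 window 1: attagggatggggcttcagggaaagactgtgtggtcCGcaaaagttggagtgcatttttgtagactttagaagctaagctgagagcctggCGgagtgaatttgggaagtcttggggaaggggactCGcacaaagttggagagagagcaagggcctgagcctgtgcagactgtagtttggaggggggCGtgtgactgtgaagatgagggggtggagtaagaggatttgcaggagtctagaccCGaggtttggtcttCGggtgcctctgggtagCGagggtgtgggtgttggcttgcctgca
Pax2 window 2: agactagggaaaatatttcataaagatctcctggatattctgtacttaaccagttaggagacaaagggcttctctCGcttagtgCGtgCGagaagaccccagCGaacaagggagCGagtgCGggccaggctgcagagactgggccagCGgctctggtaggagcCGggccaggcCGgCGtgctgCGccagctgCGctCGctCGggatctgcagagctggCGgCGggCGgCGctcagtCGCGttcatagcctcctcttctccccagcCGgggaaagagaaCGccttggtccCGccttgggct
Pax2 window 3: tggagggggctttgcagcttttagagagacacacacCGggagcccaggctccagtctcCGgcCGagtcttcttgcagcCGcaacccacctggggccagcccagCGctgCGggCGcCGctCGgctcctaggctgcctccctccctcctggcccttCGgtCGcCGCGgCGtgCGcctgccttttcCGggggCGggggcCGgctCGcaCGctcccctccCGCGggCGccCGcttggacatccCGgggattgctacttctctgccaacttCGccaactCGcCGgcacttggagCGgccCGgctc
Pax7 window: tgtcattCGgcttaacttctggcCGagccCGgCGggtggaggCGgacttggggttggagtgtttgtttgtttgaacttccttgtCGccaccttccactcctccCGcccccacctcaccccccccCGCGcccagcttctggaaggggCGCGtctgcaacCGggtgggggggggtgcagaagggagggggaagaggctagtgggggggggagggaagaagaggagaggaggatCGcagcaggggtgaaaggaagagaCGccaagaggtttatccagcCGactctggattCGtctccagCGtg

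The 3 Pax2 windows held 7, 23 and 30 CpG dinucleotides, and the Pax7 window held 17. The richest windows of Pax5 and Pax6, which were not called either, held 23 and 18. Which of these starts is used in the lung was not measured, and the probes of the array were not tied to a start. Windows were found in the RefSeq table for 41 of the 54 measured regulators. In the richest window of each gene, the median was 25 CpG dinucleotides, with 4 in Lhx8 and 42 in Barhl2 as the extremes. At least 20 were present in 27 of the 41 genes, or 65.9%, against 39.1% of 16990 tested genes with a window. Among dim genes in general the share was 14.8%, and among dim regulators of the list it was 66.7%. Among genes with more signal it was 62.1%, and among the 8 such regulators with a window it was 62.5%. The motif searched was CG, which reads the same on both strands, and 94.6% of all 32851 windows held it at least once. These windows describe the genes and say nothing of what bound there.

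Pax2 had log2 values of 5.99, 5.89, 6.03 and 6.00 in controls 1 to 4 and of 6.85, 6.57, 6.64 and 6.67 in mutants 1 to 4. The lowest mutant thus lay well above the highest control, and the spread of the 4 controls was narrow. The change was 0.70 ± 0.08 (SE) on the log2 scale, with a 95% interval of 0.54 to 0.87 and a limma adjusted p of 0.00107. Its mean over the 8 arrays, 6.33, stood at percentile 28.8 of all genes. Pax2 passed in all 18 alternatives tried, among them litter means and each embryo left out.

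The other 4 paired-box genes had positive changes that did not pass. Pax3, a factor of the dorsal neural tube, neural crest and muscle precursors, had log2 values of 6.76, 6.58, 6.45 and 6.46 in controls and 6.82, 6.77, 6.80 and 6.82 in mutants. Control 1 reached 6.76, just under the lowest mutant, so the groups were barely apart. The log2 change of Pax3 was 0.24 ± 0.08 (SE), with limma adjusted p = 0.29. Its close relative Pax7, which marks muscle stem cells, had 7.15, 7.30, 7.10 and 6.94 in controls and 7.26, 7.15, 7.48 and 7.37 in mutants, with overlapping groups and a log2 change of 0.19. Pax6, the regulator of eye, forebrain and pancreas, and Pax5, a factor of B cells and of the midbrain-hindbrain boundary, had log2 changes of 0.09 and 0.05. The family median was 0.19, where the median over all 54 regulators was 0.07 and over all genes 0.01. No test of one family against another was made.

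**Figure D2:**
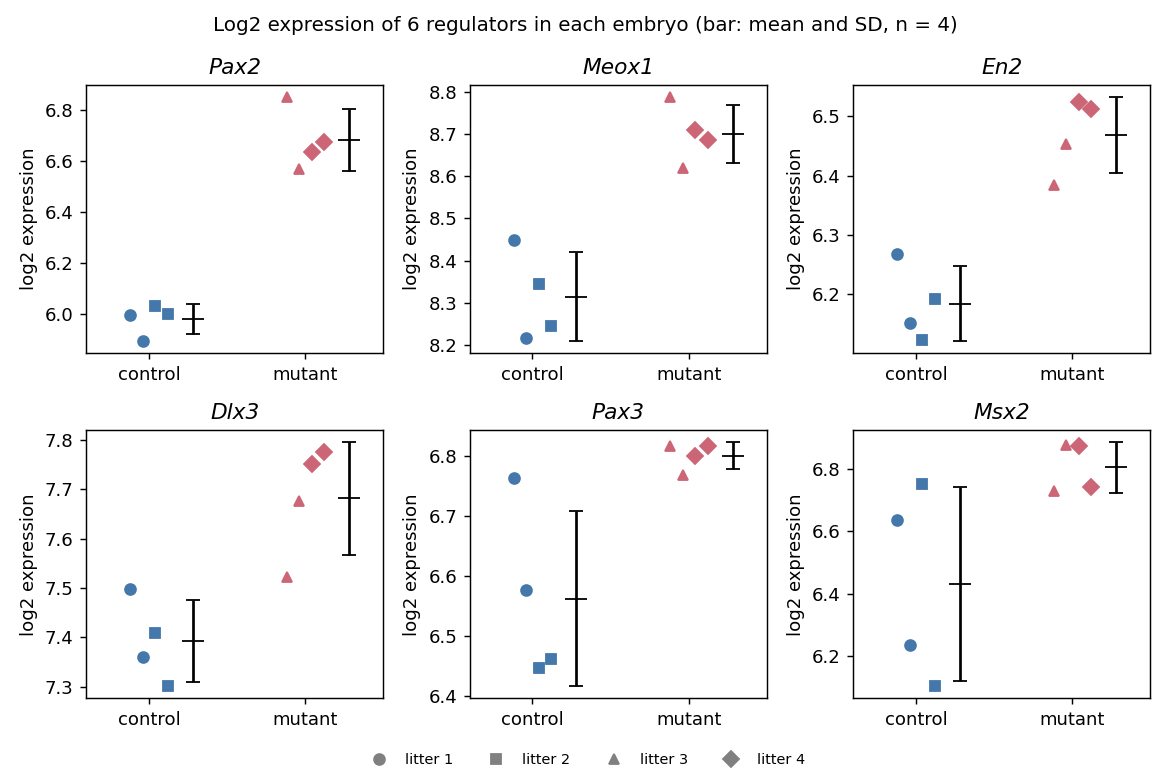
Log2 expression of Pax2, Meox1, En2, Dlx3, Pax3 and Msx2 in each embryo, with a symbol for each litter and the mean and SD of each group (n = 4) beside the points. The groups are apart in Pax2 and Meox1 and close to each other in Pax3 and Dlx3, while Msx2 controls span 6.10 to 6.75 and overlap the mutants.

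Among 7 homeobox genes of mesoderm and mesenchyme, Meox1 rose and 6 did not pass. Meox1, a regulator of somites and paraxial mesoderm, had log2 values of 8.45, 8.22, 8.35 and 8.25 in controls and 8.79, 8.62, 8.71 and 8.69 in mutants. Every mutant exceeded every control, and control 1 was the highest control. The log2 change was 0.39 ± 0.07 (SE), with a 95% interval of 0.22 to 0.55 and a limma adjusted p of 0.0383. The call was close to the threshold. It held in 10 of 18 alternatives and was lost with littermates averaged (limma adjusted p = 0.0953), with array medians set equal (0.0709) and without control 2, 3 or 4 (0.0851, 0.0629 and 0.178) or mutant 1, 3 or 4 (0.0933, 0.0639 and 0.138), while the log2 change stayed between 0.35 and 0.43. Apart from the 18 alternatives, a limma fit adjusted over all 41345 probe sets gave Meox1 an adjusted p of 0.114 and Pax2 one of 0.0079. Unlike Pax2, Meox1 was above the median signal of all genes.

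Msx2, a target of BMP signalling in limb, skull and tooth, had a log2 change as large as that of Meox1, 0.37 ± 0.15 (SE), without passing. Its log2 values were 6.64, 6.23, 6.75 and 6.10 in controls and 6.73, 6.88, 6.87 and 6.74 in mutants. Controls 2 and 4 were low while controls 1 and 3 lay near the mutants, so each control litter held a high and a low embryo and the groups overlapped. By limma its adjusted p was 0.437.

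The regulators of limb and craniofacial mesenchyme Prrx1 and Prrx2 gave some of the brightest signals of the list. Prrx1 had log2 values of 9.17, 9.03, 9.21 and 8.99 in controls and 9.29, 9.36, 9.38 and 9.0 in mutants, a change of 0.16 ± 0.10 (SE). Mutant 4 was close to the lowest control, whereas the other mutants were above all controls. For Prrx2 the values were 8.37, 8.09, 8.31 and 8.11 in controls and 8.20, 8.32, 8.13 and 8.41 in mutants, a change of 0.04 with overlapping groups. The hindlimb and pituitary factor Pitx1 had a log2 change of 0.16, Pitx3, a factor of lens and midbrain neurons, −0.02, and Uncx, which marks the posterior part of each somite, −0.06. None of these 5 genes passed.

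In the group of 11 head, midbrain and hindbrain homeobox genes none passed by limma, 1 had an unadjusted p under 0.05, and the median log2 change was 0.06. En2, an engrailed gene of the midbrain-hindbrain boundary, came closest. Its log2 values were 6.27, 6.15, 6.12 and 6.19 in controls and 6.38, 6.45, 6.52 and 6.51 in mutants, so the groups did not overlap, and control 1 and mutant 1 were nearest to each other. The log2 change was 0.28 ± 0.06 (SE), with limma adjusted p = 0.0706. En2 passed without the litter block (adjusted p = 0.0353), after a second quantile normalization (0.0409) and with the Xist level as a covariate (0.0172), each by limma. Those fits called 190, 155 and 361 of all genes higher, against 134 in the reported fit. Its paralogue En1 had a log2 change of −0.02. Otx1 and Otx2, of forebrain and midbrain, had log2 changes of 0.08 and 0.07, and Emx1 and Emx2, of the dorsal telencephalon, had −0.003 and 0.08. Gbx2, of the anterior hindbrain, and Vax1, of the optic nerve, had 0.07 and 0.06. For Barhl2, Evx2 and Gsc, the last a gene of the head organizer, the log2 changes were −0.02, −0.03 and −0.07, and that of Gsc was the lowest of all 54 regulators. The second probe set of Gbx2 had a log2 change of 0.03.

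Dlx genes pattern the branchial arches, limbs and forebrain and sit in pairs on the chromosomes. Of the 5 measured, 0 passed by limma, 1 had an unadjusted p under 0.05, and the median log2 change was 0.06. Dlx3, a factor of epidermis, placenta and teeth, had log2 values of 7.5, 7.36, 7.41 and 7.30 in controls and 7.52, 7.68, 7.75 and 7.78 in mutants. The groups were apart by the narrow gap between control 1 and mutant 1. The log2 change was 0.29 ± 0.08 (SE), with limma adjusted p = 0.153. With the Xist level as a covariate the adjusted p was 0.033 by the same method. That fit called 361 of all genes higher, against 134 in the reported fit. Dlx4, its direct neighbour on chromosome 11, had a log2 change of −0.02.

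Dlx5, a factor of bone and limb, had 5.61, 5.53, 5.64 and 5.49 in controls and 5.67, 5.53, 6.16 and 5.79 in mutants. Mutant 3 stood well above the other 3 mutants, of which mutant 2 was within the controls. The log2 change was 0.22 ± 0.12 (SE), or 0.10 without mutant 3, and did not pass. Its neighbour on chromosome 6, Dlx6, had a log2 change of 0.06, and Dlx2 had −0.03. The other neighbouring pairs of the list, Six2 with Six3 and Olig1 with Olig2, had log2 changes of 0.08 with 0.02 and of 0.15 with 0.06, none of which passed.

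Of 8 LIM homeobox (Lhx) genes, which specify neurons, pituitary, kidney and gonad, 0 passed by limma and 0 had an unadjusted p under 0.05. The median log2 change was 0.06 and the range −0.04 (Lhx2, of forebrain, eye and hair follicle) to 0.17 (Lhx4, of pituitary and motor neurons). Lhx4 had log2 values of 7.34, 7.23, 7.20 and 7.03 in controls and 7.32, 7.29, 7.48 and 7.37 in mutants, with control 1 inside the range of the mutants. Lhx6, a factor of forebrain interneurons and the brightest Lhx probe set, had 8.72, 8.56, 8.62 and 8.50 in controls and 8.64, 8.77, 8.70 and 8.71 in mutants, a change of 0.10 ± 0.07 (SE). Control 1 exceeded 3 of the 4 mutants there, and the groups overlapped. Lhx3, the partner of Lhx4 in the pituitary, had a log2 change of 0.16, and Lhx1, Lhx5, Lhx8 and Lhx9 had 0.09, 0.02, 0.03 and 0.04.

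Six2, which maintains nephron progenitors, had a log2 change of 0.08, and Six6 and Six3, both of eye and forebrain, had 0.06 and 0.02. None passed, and none had an unadjusted p under 0.05.

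Genes of the ventral neural tube and of neural progenitors had small changes. Of the 6 Nkx and Sox genes, 0 passed by limma and 1, Sox21, had an unadjusted p under 0.05. Sox21, a Sox factor of neural progenitors and of stratified epithelium, had log2 values of 7.86, 7.77, 7.87 and 7.61 in controls and 8.03, 7.97, 7.85 and 7.95 in mutants. Mutant 3 lay below controls 1 and 3 and the other mutants above all controls, and the change was 0.17 ± 0.08 (SE). The second probe set of Sox21 had a log2 change of 0.16. Nkx6-1, Nkx2-2 and Nkx6-2 had log2 changes of 0.10, 0.05 and 0.05, and the neural progenitor gene Sox1 and the interneuron gene Sox14 had −0.01 and 0.001.

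The 6 basic helix-loop-helix genes gave 0 calls by limma and 0 with an unadjusted p under 0.05, and all 6 changes were above 0 with a median of 0.10. Sim1, of the hypothalamus, and Olig1, of the oligodendrocyte lineage, had log2 changes of 0.17 and 0.15, neither of which passed. Neurog2, a determinant of sensory and cortical neurons, had log2 values of 7.72, 7.62, 7.57 and 7.64 in controls and 7.66, 7.67, 7.86 and 7.78 in mutants, so that mutants 1 and 2 lay below control 1 and both mutants of litter 4 above all controls. Its change was 0.10 ± 0.07 (SE). Sim2, Olig2 and Neurog1 had 0.09, 0.06 and 0.001.

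Gata4, the zinc finger factor of heart, gut and gonad, had log2 values of 7.86, 7.74, 7.77 and 7.68 in controls and 7.79, 7.77, 7.86 and 7.78 in mutants, and a change of 0.04 ± 0.06 (SE). Foxd3, the forkhead factor of neural crest, had 7.85, 7.78, 8.03 and 7.86 in controls and 7.89, 7.82, 8.0 and 7.94 in mutants, and a change of 0.04 ± 0.07 (SE). In both genes the groups overlapped. The 95% intervals were −0.10 to 0.17 for Gata4 and −0.12 to 0.20 for Foxd3. Foxl2, a regulator of the ovary, did not pass either, with a log2 change of 0.12.

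Signal was low for most of these genes. By the mean over the 8 arrays, 44 of the 54 lay below the median of all genes, a log2 value of 7.564, and are called dim here. None was among the 25% of genes with the most signal, and 9 were among the 25% with the least. The 10 genes above the median were Prrx1, Lhx6, Meox1, Prrx2, Foxd3, Sox21, Gata4, Neurog2, Sox14 and Gbx2. Just above the border was Gbx2 with 7.60, and just below it Dlx3 with 7.54. Probe sets differ in how strongly they bind, so this split ranks array signal and not transcript number, and a low value does not show that a transcript was absent.

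Of the 44 dim genes, 1 rose (Pax2), 0 fell and 43 did not pass. Of the 10 genes with more signal, 1 rose (Meox1), 0 fell and 9 did not pass. Over all dim genes 0.523% were called higher and 0.108% lower, and over all genes with more signal 0.685% and 0.388%. The median log2 change was 0.06 in the dim regulators (range −0.07 to 0.70) and 0.09 in the others (0.001 to 0.39), where the medians over all genes in these ranges were 0.03 and −0.02. Changes above 0 were found in 33 of the 44 dim regulators, or 75%, and in all 10 of the others. Over all genes in the same ranges they made up 63.1% and 42.6%. The median SD among embryos was 0.10 in controls and 0.13 in mutants for the dim regulators, and 0.10 and 0.11 for all dim genes.

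**Figure D3:**
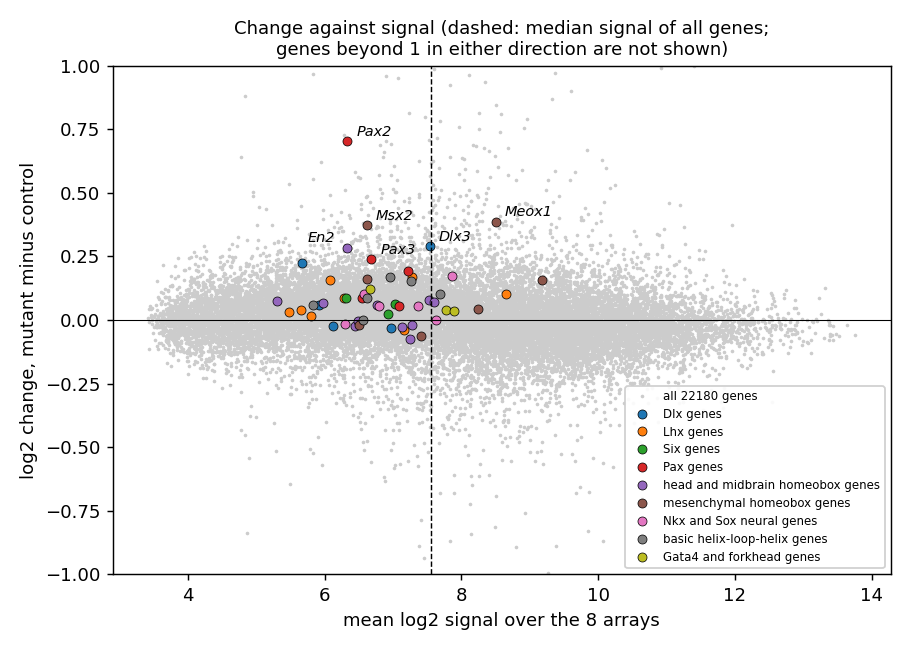
Log2 change, mutant minus control, against the mean log2 signal over the 8 arrays for all 22180 genes (grey) and the 54 regulators (coloured by family), with the median signal of all genes as a dashed line. Most regulators lie left of the line and near 0, with Pax2 highest on the left and Meox1 highest on the right.

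The positive sign was widespread but small, and it differed among littermate pairs. In 43 of the 54 regulators the log2 change was above 0, or 79.6%, against 52.9% of all genes. The share was similar, 76.8%, among the 69 measured relatives outside the list that are described below. In the marker lists described below it ranged from 28% (lung epithelium) to 93.8% (foregut). The median deviation of the 54 genes from their control means was 0.08, −0.03, 0.01 and −0.07 in controls 1 to 4 and 0.03, −0.01, 0.17 and 0.11 in mutants 1 to 4. Both mutants of litter 4 were thus high, while both mutants of litter 3 lay within the range of the controls. Over all dim genes of the array the same measure was 0.03, −0.01, −0.01 and −0.02 in controls and −0.004, −0.01, 0.09 and 0.04 in mutants, so that control 1 was the highest control and mutants 3 and 4 the highest mutants there too. The part of this array-wide shift of dim genes in the result was not tested.

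Single embryos led the ranking of many regulators at once. Mutant 3 was the highest mutant in 34 of the 54 genes and mutant 2 the lowest in 28, while control 1 was the highest control in 29 and control 4 the lowest in 25. Without mutant 3, the change was above 0 in 36 of the 54 genes, with a median of 0.05. In Pax2 and Meox1 mutant 1 was the highest mutant and mutant 2 the lowest.

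**Figure D4:**
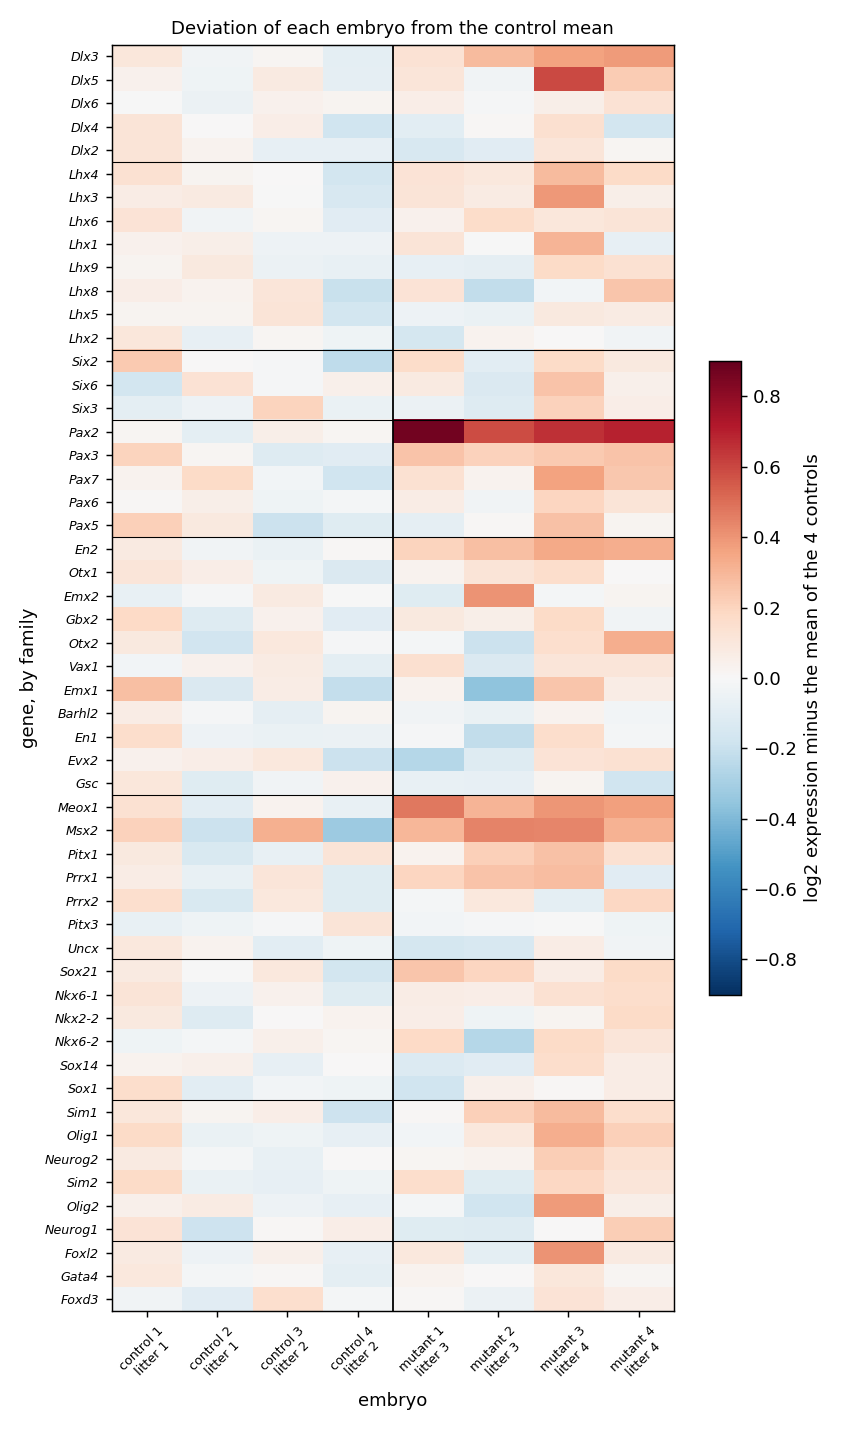
Deviation of each embryo's log2 expression from the mean of the 4 controls for the 54 regulators, by family, with embryos in columns and their litter named. Pax2 and Meox1 are high in all 4 mutants, whereas in most other rows mutant 3 is the highest of the mutants and mutant 2 the lowest or close to the controls.

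Relatives of these regulators outside the list were counted in the same way. Of 69 measured members of 77 named relatives, 2 rose, 0 fell and 67 did not pass, against the 0.604% of all genes called higher. The 2 were Pax9, a paired-box gene of foregut endoderm, which rose by 0.78 ± 0.07 (SE), and Dbx1, a homeobox gene of spinal cord progenitors, which rose by 0.62 ± 0.09 on the log2 scale. Isl1 (log2 change 0.60) and the heart gene Nkx2-5 (0.30) had the next largest changes, did not pass, and had groups that did not overlap. The median of the relatives was 0.06.

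Beside these results stand the markers of other cell types. Of 24 neuron and glia markers, 0 rose and 1 fell, Ret, with a log2 change of −0.43. Over all genes 0.604% were called higher and 0.248% lower. The mean over the list was 7.12 to 7.22 in controls and 7.17 to 7.26 in mutants. At an unadjusted p under 0.05, 4 of the 24 were higher and 2 lower, against 5.61% and 4.26% of all genes. All mutants lay above all controls in 3 of them and below in 2, against 4.48% and 3.6% of all genes. Of 23 lung mesenchyme markers 0 passed by limma, with 1 higher and 3 lower at an unadjusted p under 0.05, and list means of 10.22 to 10.24 in controls and 10.23 to 10.27 in mutants. Skeletal muscle and body wall markers had 0 of 20 passing, with 2 higher and 1 lower at an unadjusted p under 0.05, and list means of 6.74 to 6.84 and of 6.75 to 6.87. Heart markers had 0 of 20 passing, with 1 higher and 2 lower at an unadjusted p under 0.05, and list means of 7.46 to 7.59 and of 7.53 to 7.64. The list means of those 4 lists therefore overlapped between the groups. All mutants lay above all controls in 3 of 23 mesenchyme, 1 of 20 muscle and 2 of 20 heart markers. They lay below all controls in 1 marker of each of these lists.

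Of 25 lung epithelium markers 1 fell, Foxa1, with a log2 change of −0.56, against 0.248% of all genes called lower. List means were 9.70 to 9.92 in controls and 9.70 to 9.79 in mutants. At an unadjusted p under 0.05, 2 of the 25 were higher and 9 lower, against 5.61% and 4.26% of all genes. All mutants lay below all controls in 8 and above them in 0, against 3.6% and 4.48% of all genes. The list's median log2 change was −0.08. Of 14 mesothelium markers 1 rose, Upk1b, with a log2 change of 0.46, against 0.604% of all genes called higher. List means were 8.38 to 8.49 in controls and 8.47 to 8.56 in mutants, with 3 higher and 0 lower at an unadjusted p under 0.05. All mutants lay above all controls in 2 of the 14 and below them in 1. The 2 markers with the most signal in each of these lists, Ednrb and Fabp7, Vim and Fn1, Des and Col2a1, Actc1 and Gata5, Sftpc and Id2, and Upk3b and Podxl, did not pass, with log2 changes from −0.48 (Actc1) to 0.12 (Id2). Markers of oesophagus, thyroid and other foregut differed more. Of 16 measured, 5 rose (Krt15, Krt4, Krt17, Pax9 and Trp63), 0 fell and 11 did not pass, against 0.604% of all genes called higher. The list was chosen with earlier results of these data known, so its count is no test against that share. Pax9 was also counted among the relatives above. Their log2 changes were 2.04, 1.22, 1.17, 0.78 and 0.71. At an unadjusted p under 0.05, 8 of the 16 were higher and 0 lower. All mutants lay above all controls in 7 of the 16 and below them in 0. The list mean, to which the 3 keratins add most among these 5, was 6.65 to 6.69 in controls and 7.06 to 7.20 in mutants, with no overlap. Which cells express these 5 genes was not measured, and any link to the increase of Pax2 was not tested.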

How the data were processed

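The deposited values are log2 expression, made by the authors with RMA in the package oligo, per the submitters' processing notes. Versions were not given in the sources used here. The platform annotation gave a single gene symbol for 23521 of 41345 probe sets and several symbols for 1814, and did not list 16010. Of the probe sets with several symbols, 6 included a listed regulator and were not used. Values came without detection calls, and the number of arrays limits the precision.

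Genotype effects were estimated for 22180 genes with limma 3.58.1 in R 4.3.3. Litter entered as a random block, with an estimated correlation of 0.153. Moderated two-sided tests were adjusted over all genes (Benjamini-Hochberg), and 0.05 was the threshold. Every "limma adjusted p" is from this fit unless an alternative is named. The fit was tested on simulated data. Intervals are 95% intervals of single genes. Promoter windows came from RefSeq (GRCm38.p6). Figures were drawn with matplotlib 3.10.9.

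The regulators and the 8 other gene lists were chosen with earlier results of these data known. Values of all embryos are given for 16 regulators: those called, those whose groups did not overlap, the 8 with the most signal and the 4 largest remaining changes. Every other measured regulator is named with its change. Of the relatives, the genes called and the 4 largest changes were named, and of the marker lists the genes called and the 2 with the most signal. Median, count and range describe a list, with no list test. Alternatives covered litter, replicate number, each embryo left out, dim genes, scaling, probe sets, variance prior, array weights, the Xist level and the border between dim and brighter genes.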

Additional observations from a re-analysis of the deposited data

How the results depend on the processing

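Pax2 kept its direction and its call in all 18 alternatives. The count of regulators called higher was 2 in the reported fit and 1 (Pax2 alone) with littermates averaged and with array medians set equal. Without the litter block and after a second quantile normalization it was 3, with En2 added. It was 4 with the Xist level as a covariate, where Dlx3 and En2 joined. Of all 22180 genes, that fit called 361 higher and 313 lower, against 134 and 55 in the reported fit. Over the fits that left out 1 embryo, the count was 2 without control 1 or mutant 2. It was 1 (Pax2 alone) without any of the other embryos. The count called lower was 0 throughout. Replicate numbers are shared by the 2 genotypes, but same-numbered embryos come from different litters and their deviations correlated at −0.27 to 0.03, so the numbers do not pair them. With the replicate block the count was 2, the same genes. The median log2 change of the Dlx genes was −0.024 with the 25% dimmest genes left out, which removed Dlx5 and Dlx6, against 0.06. The other family medians and those of dim and brighter regulators moved by less than the spread between embryos, but some are so close to 0 that they changed sign or size. The median of Six2, Six3 and Six6 was −0.0002 without mutant 3. That of the head and midbrain genes was −0.005 without mutant 4 and −0.003 with the 25% dimmest genes left out. The median of the dim regulators was 0.12 without mutant 2, against 0.06, and that of the brighter ones was 0.13 without control 1 and 0.05 without control 4, against 0.09. A border that keeps only the brightest 25% of all genes gave no value for brighter regulators, since none lies above it. Signal near the lower end of the array limits what can be said of the 44 dim genes.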

Other observations

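Genes next to the 5 regulators whose groups did not overlap were looked up in the RefSeq gene order, 3 protein-coding genes to each side. Of 27 measured neighbours outside the list, 1 was called higher, Sgpp2, and 0 were called lower. Sgpp2 rose by 0.99 ± 0.12 (SE) on the log2 scale, with limma adjusted p = 0.00296. It lies 2 protein-coding genes from Pax3, and Gm2102 between them had a log2 change of 0.01. All mutants lay above all controls in 3 of the 27 and below them in 2, Shh and Hif1an. Of all genes, 4.48% and 3.6% were apart in these directions, and 0.604% were called higher and 0.248% lower. Cnpy1, the direct neighbour of En2, had a log2 change of 0.61 ± 0.13 with limma adjusted p = 0.0744, and all 4 mutants lay above all 4 controls. Shh, whose promoter drives the Cre and which lies 3 protein-coding genes from En2, did not pass, with a log2 change of −0.28. Etv4, the neighbour of Meox1, had 0.23, which did not pass, with all mutants above all controls. The direct neighbours of Pax2, Hif1an and Slf2, had −0.12 and −0.05 and did not pass. These neighbours were named after their values were seen.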
